A study of Mus musculus with 6 samples.

Results

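The nuclear genes of the mitochondrial respiratory chain were described in RNA-seq counts from 2 lines of immortalized mouse keratinocytes. The genes were chosen by symbol in GENCODE M21: symbols beginning with Nduf, Uqcr, Atp5, Cox4, Cox5, Cox6, Cox7 or Cox8, together with Sdha, Sdhb, Sdhc, Sdhd, Cyc1 and Cycs, kept where the gene is annotated as protein-coding. This gave 95 of the 49315 genes in the table: 36 subunits of complex I, 8 complex I assembly factors, 4 subunits of complex II, 9 of complex III, cytochrome c, 20 of complex IV and 17 gene symbols of complex V. A further 11 genes met the symbol rule but are annotated as pseudogenes, and together they held at most 0.0300% of the level of the 95 genes in any library. Of the 95 genes, 90 had enough counts to be tested, among 13704 genes tested in all. The loci of 38 of the 90 overlap another gene in the table, and whether counting used strand is not stated, so how reads were divided within such pairs is not known.

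The 3A group was 3 libraries of the line MK-546-ha3A, keratinocytes without their own α3 integrin to which human α3 integrin had been restored. The Control group was 3 libraries of the parental line MK-546, which lacks α3 integrin. Integrin α3, the laminin-binding partner of integrin β1 in basal keratinocytes, is therefore the difference that the labels name, and the loss of the mouse gene is shared by both groups. Both lines are immortalized, grew in low-calcium medium on collagen-coated dishes at 33 °C in 8% CO2, and received no treatment. Each group is 1 cell line, and nothing in the labels says that replicates came from separate cultures, so p-values measure the spread between these libraries, which may be technical.

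The respiratory chain passes electrons from NADH through complex I, or from succinate through complex II, to ubiquinone, then through complex III and cytochrome c to oxygen at complex IV. The proton gradient that complexes I, III and IV build drives ATP synthesis by complex V. Apart from complex II, each complex combines nuclear-encoded subunits with a few proteins encoded in mitochondrial DNA. The nuclear subunits fall into catalytic or core proteins, most of them large, and many small supernumerary proteins that surround them. Transcription factors of the NRF1, GABP (an ETS factor) and YY1 families are known regulators of many of these nuclear genes.

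Total counts were 34177002, 36245240 and 35242818 in 3A libraries 1 to 3 and 29685248, 30919348 and 25634204 in Control libraries 1 to 3. Library Control 1 stood apart from its own group in the correlation across genes of log2 CPM (counts scaled to a common library size). It was 0.957 with Control 2 and 0.953 with Control 3, against 0.988 between Control 2 and Control 3. With 3A libraries 1 to 3 the correlation of Control 1 was 0.946, 0.955 and 0.951. Within 3A, library 3A 1 was less like the others, at 0.985 with 3A 2 and 0.982 with 3A 3, against 0.994 between 3A 2 and 3A 3. The mRNAs encoded in mitochondrial DNA made up 1.58%, 1.23% and 1.30% of the counts in 3A libraries 1 to 3, and 1.16%, 4.16% and 4.69% in Control libraries 1 to 3. Control 1 thus lay with the 3A libraries in this measure. Called genes, and the larger groups of genes, are given with all 6 libraries and again without Control 1. Control 1 was singled out after its values were seen, in part by its level of mitochondrially encoded respiratory chain mRNAs. Without it, the Control spread came only from Control 2 and Control 3, which were much alike. Calls over all tested genes then rose from 14.9% to 52.0%, so p-values without Control 1 are descriptive only. The 10 keratinocyte markers summed to 7839 to 9790 CPM in 3A and 10478 to 12068 CPM in Control, whereas markers of fibroblasts, melanocytes, endothelium and muscle summed to at most 3.40 CPM in 3A and 3.36 CPM in Control, with Lum, Tyr, Dct and Myog at 0 counts. Leukocyte markers summed to 9.83 to 12.4 CPM in 3A and 11.7 to 20.2 CPM in Control, with Adgre1 at 0 counts. Mouse Itga3 had 80.4, 70.2 and 57.5 CPM in 3A and 31.9, 41.7 and 45.1 CPM in Control; reads of the human sequence may have been counted on it and the deleted part is not given, so it checks neither the deletion nor the restored gene.

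With all 6 libraries, 3 of the 90 tested respiratory chain genes were higher in 3A and 0 were lower. They were Sdhd, a membrane anchor of complex II, Ndufaf4, a complex I assembly factor, and Cox7b2, a testis-type isoform of a small complex IV subunit. They were read from an edgeR quasi-likelihood fit of all tested genes, with p-values adjusted by Benjamini and Hochberg's method and a threshold of 0.05. This was 3.33% of the respiratory chain genes, while 14.9% of all 13704 tested genes passed the same test, 7.52% higher and 7.39% lower. At an unadjusted p under 0.05, 7 were higher (7.78%) and 6 lower (6.67%), beside 15.8% and 18.1% of all tested genes, and DESeq2 called 5 higher and 2 lower, the 2 being Ndufa13 and Ndufa6 of complex I (background 26.0%, with 12.3% higher and 13.8% lower). Without Control 1, 11 were higher and 46 were lower, or 63.3%, beside a background of 52.0% of 14300 tested genes (26.2% higher and 25.8% lower). With 1 other library left out, 1 or 2 genes were higher and 0 lower, beside backgrounds of 5.99% without Control 2, 6.98% without Control 3, 9.18% without 3A 1, 4.72% without 3A 2 and 4.77% without 3A 3. In these fits Cox7b2, for which a call could only be higher, passed each time, Sdhd passed only without 3A 1, and Ndufaf4 passed in none. In bulk RNA, fewer cells that carry these mRNAs and less of them per cell cannot be told apart.

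To place the 3 genes that passed with all 6 libraries, their promoters are printed from the RefSeq table (build GRCm38.p6), 250 bases before to 50 bases after the annotated start, 5′ to 3′ on the gene's strand. Capitals mark a match to the NRF1 letters (GCGC, any 1 base, then TGCGC), searched on both strands. The windows are chr4:24897833-24898132 (plus strand) for Ndufaf4, chr9:50603800-50604099 (minus strand) for Sdhd and chr5:71548156-71548455 (minus strand) for Cox7b2.
Ndufaf4: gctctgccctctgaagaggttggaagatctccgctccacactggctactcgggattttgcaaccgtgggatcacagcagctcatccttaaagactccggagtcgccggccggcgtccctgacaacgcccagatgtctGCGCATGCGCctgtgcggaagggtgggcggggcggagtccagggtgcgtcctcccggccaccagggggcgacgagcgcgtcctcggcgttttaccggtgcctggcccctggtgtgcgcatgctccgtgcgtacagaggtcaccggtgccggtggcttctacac
Sdhd: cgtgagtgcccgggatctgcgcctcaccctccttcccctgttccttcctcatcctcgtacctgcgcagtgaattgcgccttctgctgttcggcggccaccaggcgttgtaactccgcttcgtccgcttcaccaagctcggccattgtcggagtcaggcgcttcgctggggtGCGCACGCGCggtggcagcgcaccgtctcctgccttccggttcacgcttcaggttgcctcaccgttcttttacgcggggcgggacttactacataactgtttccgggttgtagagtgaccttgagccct
Cox7b2: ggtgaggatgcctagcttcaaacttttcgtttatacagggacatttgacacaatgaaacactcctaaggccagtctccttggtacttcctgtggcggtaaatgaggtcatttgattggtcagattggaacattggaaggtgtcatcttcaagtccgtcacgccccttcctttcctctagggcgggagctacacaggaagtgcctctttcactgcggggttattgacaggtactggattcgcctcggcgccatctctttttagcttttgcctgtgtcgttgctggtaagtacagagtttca
Both Ndufaf4 and Sdhd held 1 match, beginning 113 and 79 bases upstream of the start, and Cox7b2 held none. Of the 95 genes, 77 matched the promoter table, and 19 of these (24.7%) held the NRF1 letters, against 5.19% of 27025 genes in the table and 7.17% of its 17492 protein-coding genes. The YY1 letters AAGATGGC were in 11 (14.3%), against 3.57% of protein-coding genes. The ETS letters CCGGAAGT were in 5 (6.49%), against 5.69%. None of the 3 motifs contains another, and 33 of the 77 promoters (42.9%) held at least 1 of them, against 15.1% of protein-coding genes. By complex, the count with at least 1 motif was 14 of 32 for complex I, 9 of 15 for complex V, 3 of 5 for complex III, 2 of 3 for complex II and 2 of 14 for complex IV. A match is a description of the letters in the window and says nothing of binding.

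Sdhd (ENSMUSG00000000171), which with Sdhc anchors succinate dehydrogenase in the inner membrane and forms its ubiquinone site, had 172, 216 and 223 CPM in 3A and 126, 121 and 108 CPM in Control. All 3A libraries lay above all Control libraries. On the log2 scale 3A exceeded Control by 0.78 (SE 0.16; adjusted p = 0.0201 by edgeR), and by 0.84 without Control 1. Leaving out Control 2, Control 3, 3A 2 or 3A 3 each ended this call, with an adjusted p of at most 0.116.

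Ndufaf4 (ENSMUSG00000028261), which works with Ndufaf3 in assembling the quinone-binding part of complex I, had 60.3, 57.5 and 63.4 CPM in 3A and 28.3, 39.8 and 37.1 CPM in Control. Again the groups did not overlap. On the log2 scale the difference was 0.78 (SE 0.17; adjusted p = 0.0247 by edgeR), and 0.66 without Control 1. Any other single library left out ended the call, with an adjusted p of at most 0.105, as did offsets for mRNA length and GC content (log2 fold change 0.45, adjusted p = 0.146).

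Cox7b2 (ENSMUSG00000049387) had 29, 23 and 16 counts in 3A libraries 1 to 3 and 0 counts in every Control library. Its level was low, at 0.831, 0.613 and 0.446 CPM in 3A, against 0 in Control. Pooled over the groups, it was at least 17.6-fold higher in 3A against a floor of 3 counts over the Control group (0.0356 CPM), and the edgeR adjusted p was 0.00785. Each fit that left out 1 library kept this call. However, Cox7b2 passed the count filter only through its 3A libraries, so a call could only be higher. The p-value and these fits therefore add no separate support. A minimum of 1 CPM in 3 libraries removed the gene. Its ubiquitous counterpart Cox7b had 104, 86.7 and 84.8 CPM in 3A and 49.3, 119.8 and 154 CPM in Control, so Cox7b2 remained a small part of the Cox7b family's RNA.

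**Figure D1:**
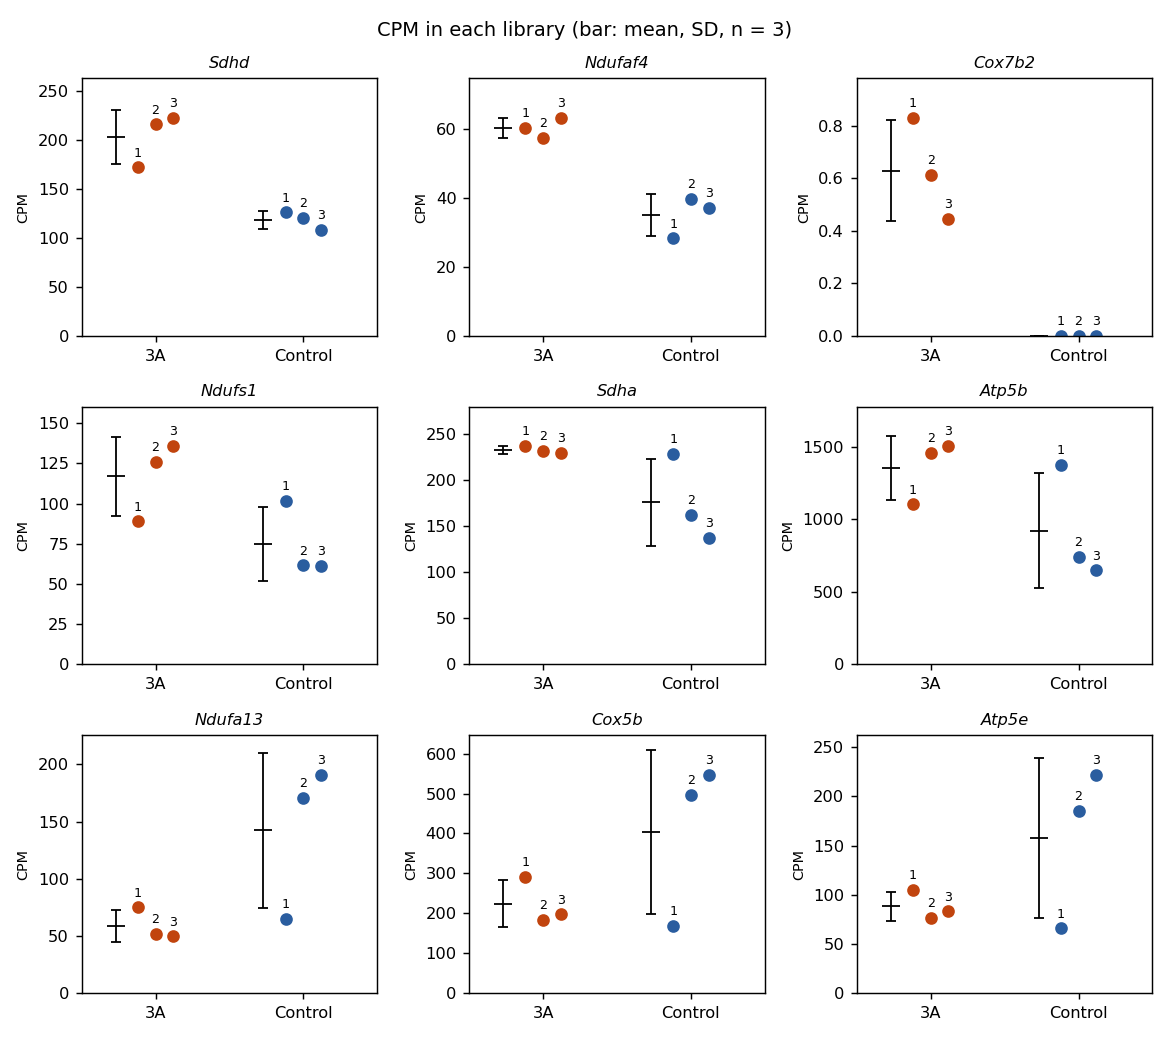
Level in each library (CPM, linear axis from 0) of the 3 genes called with all 6 libraries (top row), 3 large catalytic subunits (middle row) and 3 small subunits (bottom row), 3A in red on the left and Control in blue on the right. Points are libraries with their replicate number, and bars give the mean and SD of 3 libraries. In the top row the groups do not overlap; in the other rows Control 1 lies with the 3A libraries and away from Control 2 and Control 3.

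Complex I was the complex with the lowest median log2 fold change. Over its 36 subunits the median was -0.47 with all 6 libraries (-0.24 with offsets for mRNA length and GC content, and 0.20 with the mitochondrial share as a covariate), against -0.02 over all tested genes, and 0 subunits passed the test in either direction. Without Control 1 the median was -0.76, against 0.01 over all tested genes, and 2 subunits were higher and 26 lower. Those called were 77.8%, beside 52.0% of all tested genes (26.2% higher and 25.8% lower). The summed level of its subunits was 4164, 3222 and 3302 CPM in 3A and 3001, 5214 and 5533 CPM in Control. The lowest library of the 6 was a Control library and so were the highest 2, so the groups overlapped.

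The 29 supernumerary subunits carried this pattern. Their log2 fold change was below 0 for 28 of 29, and the highest level was in Control 2 or Control 3 for the same count of 28. Ndufa13, a membrane-arm subunit also known as GRIM-19, had 74.8, 52.0 and 49.5 CPM in 3A and 65.1, 171 and 191 CPM in Control (log2 fold change -1.28, SE 0.40, edgeR adjusted p = 0.0720; -1.61 and 0.000793 without Control 1). Ndufa6, a LYR-motif subunit that binds the acyl carrier protein, had 46.9, 30.1 and 29.4 CPM in 3A and 35.1, 95.1 and 111 CPM in Control (log2 fold change -1.18, adjusted p = 0.100; -1.53 and 0.00146 without Control 1). Ndufa5, a subunit of the matrix arm, had 64.1, 41.0 and 39.7 CPM in 3A and 40.4, 118 and 150.3 CPM in Control (log2 fold change -1.09, adjusted p = 0.142; -1.47 and 0.00197 without Control 1). In each of these genes Control 1 lay within or beside the 3A libraries, and Control 2 and Control 3 lay far above. Without Control 1, 23 of the 29 supernumerary subunits (79.3%) were lower in 3A and 0 were higher, beside 25.8% and 26.2% of all tested genes. Ndufb9, a membrane-arm subunit and the exception in sign, had 92.6, 94.8 and 100.4 CPM in 3A and 84.0, 95.5 and 81.9 CPM in Control.

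The 7 core subunits, which hold the flavin, the iron-sulfur clusters and the quinone site, split by gene. Their median log2 fold change was 0.13, and -0.04 without Control 1. Ndufs1, the largest iron-sulfur subunit, had 89.0, 126 and 136 CPM in 3A and 102, 61.6 and 61.3 CPM in Control. Its log2 fold change was 0.64 (edgeR adjusted p = 0.133), and 0.94 without Control 1 (adjusted p = 0.00582). The Ndufs1 locus overlaps Eef1b2 and Ino80dos, 2 of the genes whose reads could have been divided with it. Ndufv1, the flavin-binding subunit that oxidizes NADH, had 255, 214 and 233 CPM in 3A and 233, 210.3 and 169.6 CPM in Control, which overlap. The other way went Ndufs8 and Ndufs7, iron-sulfur subunits next to the quinone site, with log2 fold changes of -0.71 and -0.72, and Ndufv2, an iron-sulfur subunit of the NADH-oxidizing part, with -0.52. These 3 did not pass with all 6 libraries and were lower in 3A without Control 1, at -1.01, -0.95 and -0.81.

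The 8 complex I assembly factors, which are not part of the finished enzyme, had a median log2 fold change of 0.02. Their summed level was 252, 228 and 238 CPM in 3A and 166, 226 and 223 CPM in Control. Beside Ndufaf4, which was higher in 3A, Ndufaf1, an assembly factor for the membrane arm, had 44.9, 41.0 and 42.6 CPM in 3A and 29.1, 32.4 and 30.6 CPM in Control. The Ndufaf1 groups did not overlap, and its log2 fold change of 0.48 missed the threshold (SE 0.13, edgeR adjusted p = 0.0539); it passed without Control 1 (0.45, adjusted p = 0.0207). Ndufaf7, a methyltransferase, had 36.9, 36.5 and 37.3 CPM in 3A and 35.9, 35.3 and 32.0 CPM in Control. Ndufaf8, the shortest of the 8 proteins, had 10.2, 8.90 and 9.13 CPM in 3A and 8.94, 15.1 and 17.6 CPM in Control (log2 fold change -0.56, not passing), and was lower in 3A in the fit without Control 1 (-0.78).

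**Figure D2:**
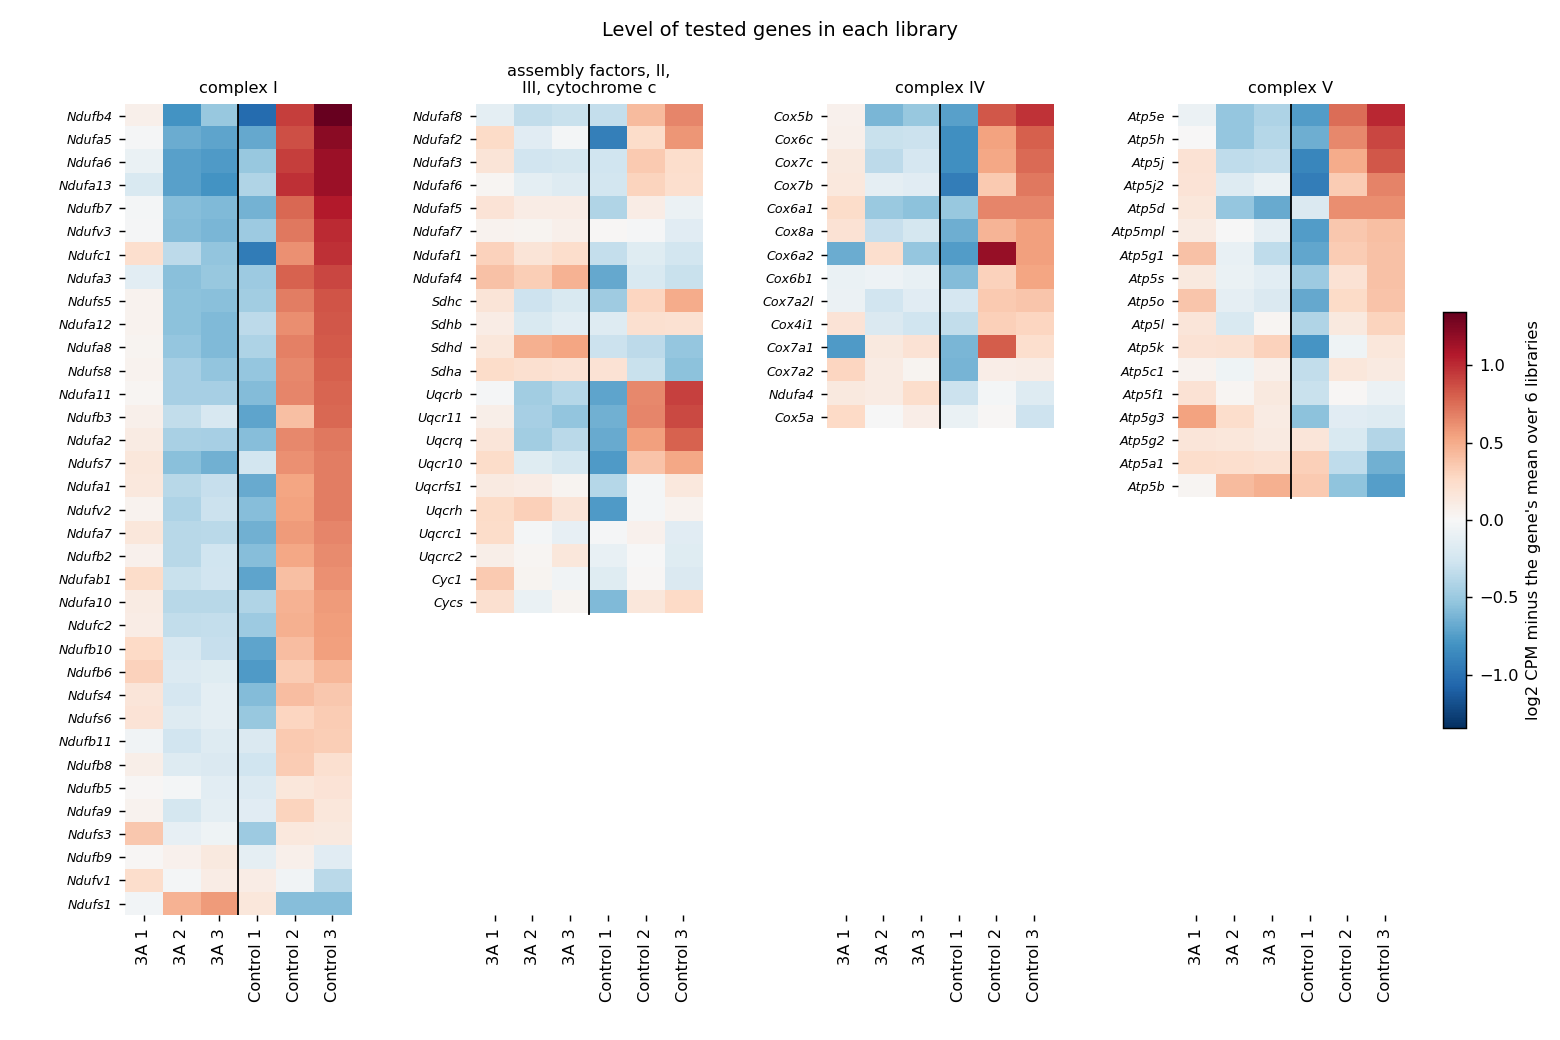
Log2 CPM of the tested genes reported here (rows) in each library (columns, 3A left of the line and Control right of it) minus the gene's mean over the 6 libraries; red is above the mean and blue below it. Cox7b2, with 0 counts in Control, is left out. Most rows are blue in Control 1 and red in Control 2 and Control 3; Ndufs1, Sdha, Sdhd, Atp5a1 and Atp5b are among those blue in Control 2 and Control 3.

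Complex II, which has no subunit encoded in mitochondrial DNA, had a summed level of 757, 714 and 731 CPM in 3A and 604.5, 662 and 656 CPM in Control. The 3 sums in 3A all lay above those in Control. With Sdhd left out, the summed level of the other subunits overlapped between the groups. Sdha, the flavoprotein that oxidizes succinate, had 237, 232 and 229 CPM in 3A and 229, 163 and 137 CPM in Control. Control 1 lay just under the lowest 3A library, and the difference on the log2 scale was 0.40 (adjusted p = 0.210 by edgeR), or 0.65 without Control 1 (adjusted p = 0.00575). Sdhb, the iron-sulfur subunit, had 148, 120.1 and 125 CPM in 3A and 122, 161 and 159 CPM in Control, with overlap and a log2 fold change of -0.17. Sdhc, the other membrane anchor, had 199, 146 and 154 CPM in 3A and 127, 217 and 251 CPM in Control, unlike its partner Sdhd. Without Control 1, Sdhd and Sdha were higher and Sdhc was lower in 3A. That was 75.0% of the subunits, beside 52.0% of all tested genes.

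Complex III had 0 of 9 subunits called with all 6 libraries and a median log2 fold change of 0.08. The summed level was 1561, 1269 and 1277 CPM in 3A and 1075, 1669.7 and 1767 CPM in Control. Cyc1, which carries electrons to cytochrome c, had 197, 159 and 149.8 CPM in 3A and 138, 157 and 135 CPM in Control. Uqcrfs1, the Rieske iron-sulfur protein, had 198, 194 and 186 CPM in 3A and 139, 178 and 199.8 CPM in Control. Uqcrc1, a core protein, had 219, 180.3 and 170.4 CPM in 3A and 182, 191 and 165 CPM in Control. All 3 overlapped between the groups, with log2 fold changes of 0.23, 0.16 and 0.08. The other core protein, Uqcrc2, had 267, 258 and 281 CPM in 3A and 236, 252 and 225 CPM in Control, without overlap and without passing (log2 fold change 0.18, edgeR adjusted p = 0.370). The 4 subunits lower in 3A without Control 1 were the small proteins Uqcrb (-1.06), Uqcr11 (-1.03), Uqcrq (-0.87) and Uqcr10 (-0.47). They were 44.4% of the subunits, beside 25.8% of all tested genes called lower and 52.0% called in either direction. Uqcrh, the small hinge protein that binds cytochrome c1, went against them with 27.5, 28.6 and 25.8 CPM in 3A and 13.5, 22.5 and 23.7 CPM in Control.

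Cytochrome c (Cycs), the mobile carrier between complexes III and IV, had 244, 198 and 216 CPM in 3A and 139, 234 and 253 CPM in Control. The log2 fold change was 0.07 with all 6 libraries (SE 0.24) and -0.14 without Control 1 (SE 0.14), and neither passed.

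Complex IV had a median log2 fold change of -0.31 over 15 tested genes, which does not move with Cox7b2 at its bound, and of 0.04 with the offsets and 0.42 with the covariate. The summed level was 2720, 2074 and 2111 CPM in 3A and 1751, 3302 and 3441 CPM in Control. Without Control 1 the median was -0.57, and 8 genes were lower and 1, Cox7b2, was higher. Those called were 60.0%, near the background of 52.0% of all tested genes (26.2% higher and 25.8% lower). Cox5b, a zinc-binding subunit, had 291, 182 and 197 CPM in 3A and 168, 497 and 547 CPM in Control (log2 fold change -0.86; -1.22 without Control 1, edgeR adjusted p = 0.00265). Cox5a, its partner on the matrix side, had 195, 162 and 172 CPM in 3A and 152, 164 and 134 CPM in Control (log2 fold change 0.23). Cox6c, a small transmembrane subunit, had 109, 84.7 and 85.4 CPM in 3A and 58.9, 152 and 183 CPM in Control, so that Control held the lowest and the 2 highest libraries.

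The isoform families of complex IV were dominated by the ubiquitous form. Cox4i1, needed for assembly of the complex, had 637, 490.5 and 468 CPM in 3A and 448, 703 and 688 CPM in Control, whereas Cox4i2, the lung-type and oxygen-sensitive form, had 4, 0 and 3 counts in 3A and 2, 4 and 2 counts in Control. Cox6a1 had 393, 234 and 227 CPM in 3A and 232, 524 and 524 CPM in Control, and its heart and muscle form Cox6a2 had 0.201, 0.373 and 0.223 CPM in 3A and 0.190, 0.718 and 0.467 CPM in Control. Cox6b1, the subunit facing the intermembrane space, had 102, 104 and 102 CPM in 3A and 72.3, 135 and 157 CPM in Control; the testis form Cox6b2 had 2, 0 and 0 counts in 3A and 1, 1 and 0 counts in Control.

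Among the Cox7a forms, Cox7a2 had 98.1, 87.1 and 82.7 CPM in 3A and 52.3, 85.7 and 86.1 CPM in Control. Cox7a2l, a factor in the joining of complexes III and IV, had 133, 117 and 126 CPM in 3A and 119, 178 and 182 CPM in Control. The muscle form Cox7a1 had 0.172, 0.320 and 0.334 CPM in 3A and 0.190, 0.513 and 0.340 CPM in Control. None of these 3 passed with all 6 libraries, and Cox7a2l was lower in 3A without Control 1 (log2 fold change -0.51, edgeR adjusted p = 0.0104). Cox8a had 257, 181 and 189 CPM in 3A and 142, 307 and 327 CPM in Control. The muscle form Cox8b had 0 counts in 3A and 0, 1 and 0 counts in Control, and the testis form Cox8c had 0 counts in all 6 libraries, which allows up to 0.0277 CPM over the 3A group and 0.0356 CPM over the Control group.

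Ndufa4, named for complex I but a subunit of complex IV, had 217, 213 and 233 CPM in 3A and 162, 194 and 174 CPM in Control. The Ndufa4 groups did not overlap, and its log2 fold change of 0.32 did not pass the test (edgeR adjusted p = 0.156). Its paralogue Ndufa4l2, a target of hypoxia signalling, had 5, 5 and 1 counts in 3A and 8, 12 and 3 counts in Control, too few to be tested.

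Complex V, the ATP synthase, had a summed level of 5044, 4721 and 4776 CPM in 3A and 4113, 4517 and 4553 CPM in Control, with all 3A sums above all Control sums. With all 6 libraries 0 of 17 genes passed, and the median log2 fold change was -0.04, against 0.18 with the offsets and 0.39 with the covariate. Without Control 1, 4 were higher and 6 were lower in 3A, or 58.8%, near the background of 52.0%. The catalytic F1 head is made by Atp5a1 and Atp5b. They summed to 1910, 2259 and 2293 CPM in 3A and 2229, 1283 and 1085 CPM in Control. With them left out, the summed level of the other complex V genes overlapped between the groups. Atp5b, which holds the catalytic sites, had 1103, 1456 and 1504 CPM in 3A and 1375, 741 and 648 CPM in Control (log2 fold change 0.56, edgeR adjusted p = 0.239; 0.98 and 0.00318 without Control 1). Atp5a1 had 807, 803 and 789 CPM in 3A and 854, 542 and 438 CPM in Control (0.39, adjusted p = 0.306; 0.72 and 0.00455 without Control 1). Control 1 was among the 3A values for Atp5b and above all of them for Atp5a1.

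The central stalk, which turns inside the head, had a median log2 fold change of -0.70 over 3 genes. Atp5c1, its main shaft, had 425, 396 and 431 CPM in 3A and 329, 459 and 447 CPM in Control (0.02; -0.11 without Control 1). The short subunit Atp5e had 104, 76.7 and 82.9 CPM in 3A and 65.6, 185 and 222 CPM in Control (-0.84; -1.20 without Control 1), and Atp5d had a log2 fold change of -0.70. The 3 genes of the proton-carrying c-ring encode the same mature protein. Atp5g3 had 437, 352 and 323 CPM in 3A and 204, 269 and 266 CPM in Control, without overlap (0.59, edgeR adjusted p = 0.0765; 0.48 and 0.0338 without Control 1). Atp5g2 had 76.5, 76.2 and 74.2 CPM in 3A and 76.7, 59.5 and 52.0 CPM in Control. Atp5g1 had 201, 143 and 120.3 CPM in 3A and 94.0, 194 and 201 CPM in Control, unlike the other two in its order of libraries. Summed, the 3 c-ring genes had 715, 571 and 517 CPM in 3A and 375, 523 and 519 CPM in Control.

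In the peripheral stalk, which holds the head still, Atp5f1 had 389, 344 and 372 CPM in 3A and 276, 342 and 322 CPM in Control, with no overlap. Atp5h, another stalk subunit, had 235, 164 and 180.1 CPM in 3A and 149, 368 and 438 CPM in Control (log2 fold change -0.72; -1.05 without Control 1). Atp5s, also called factor B and not a subunit of the core enzyme, had 8.05 to 14.9 CPM in all 6 libraries.

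**Figure D3:**
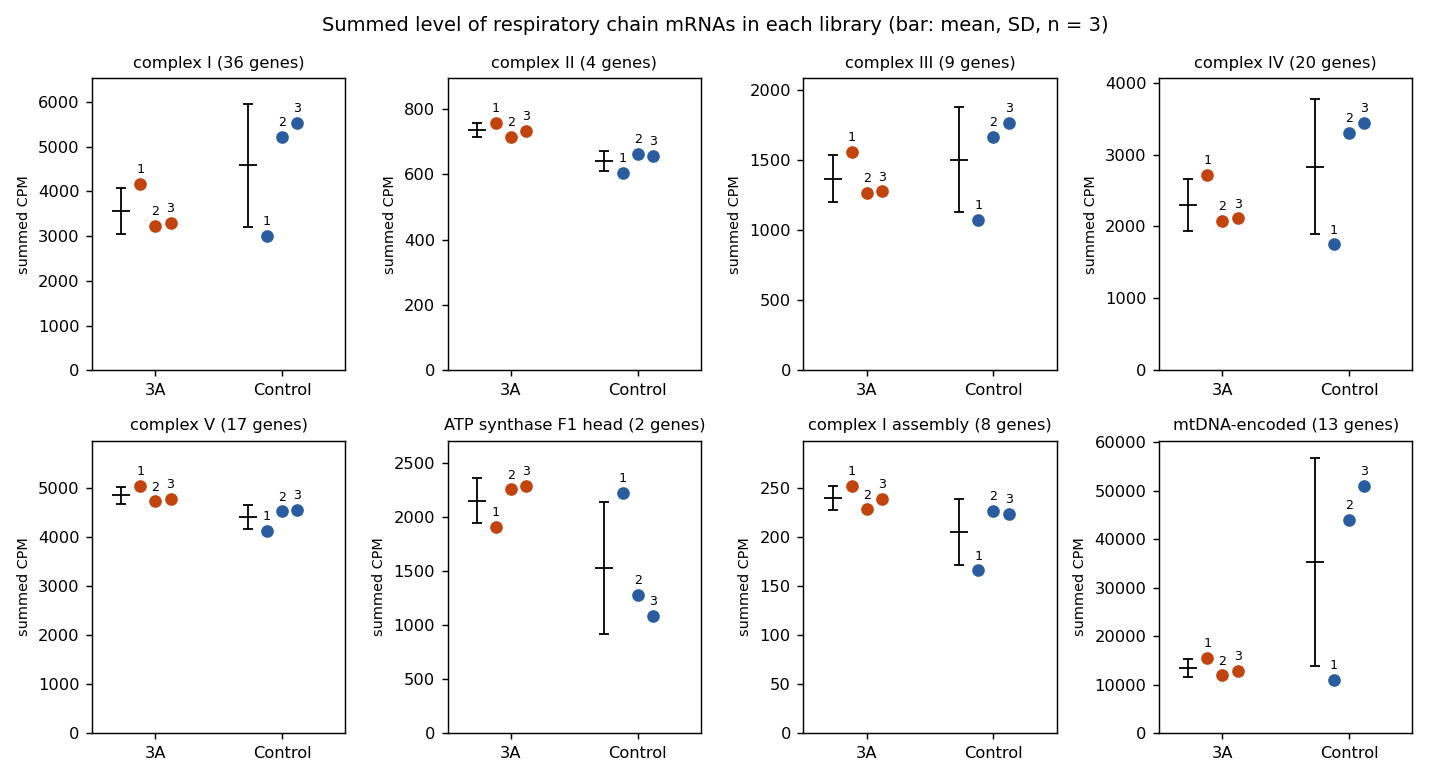
Summed CPM of each group of genes in each library, 3A on the left and Control on the right of each panel, with axes from 0. Points are libraries with their replicate number, and bars give the mean and SD of 3 libraries. Control 1 is the lowest library in every panel but that of the F1 head, where it is the highest Control library. For complexes II and V all 3A sums lie above all Control sums. That order is lost for complex II with Sdhd left out, and for complex V with the F1 head genes left out.

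**Figure D4:**
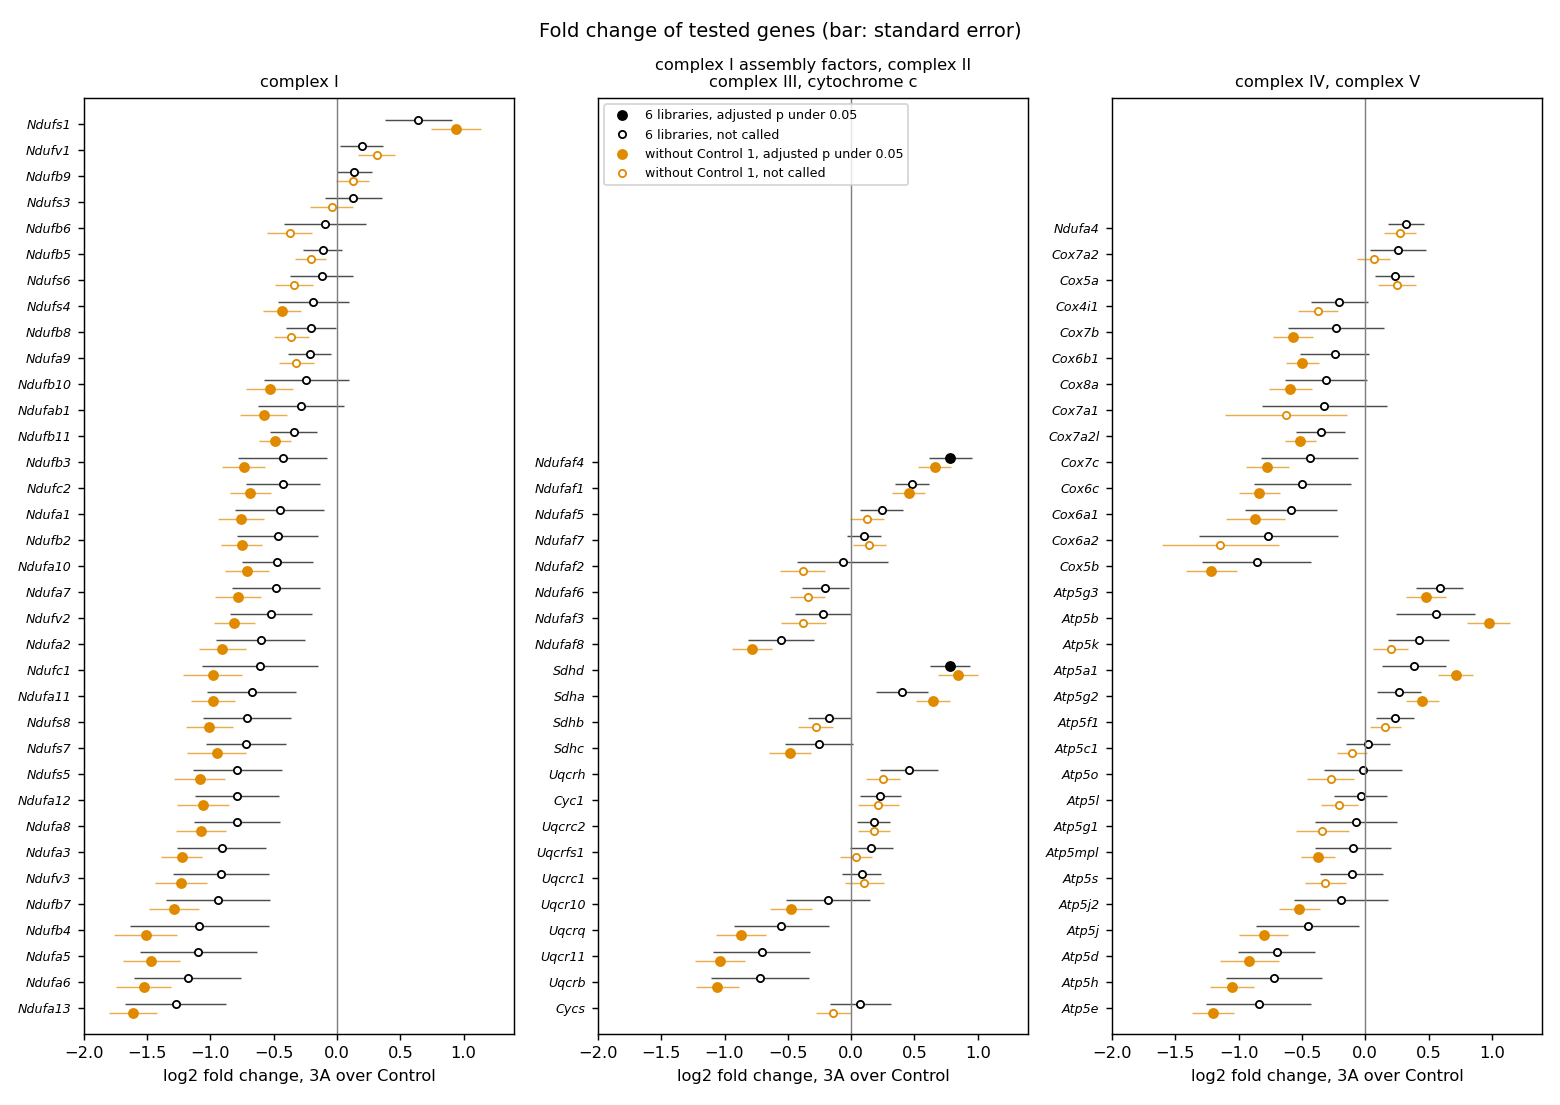
Log2 fold change of 3A over Control (x axis) for the tested genes reported here (rows, ordered within each complex), with the standard error as a bar, from all 6 libraries (black) and without Control 1 (orange). Filled symbols have an adjusted p under 0.05; Cox7b2, with 0 counts in Control, is left out. Most filled orange symbols lie left of 0, with Ndufs1, Sdha, Sdhd, Atp5a1 and Atp5b right of it.

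Across all 90 tested genes the lowest of the 6 libraries was Control 1 for 58, or 64.4%, against 19.6% of all tested genes. The highest library was Control 2 or Control 3 for 64, or 71.1%, against 37.1%. Control 1 lay nearer to the mean of 3A than to the mean of Control 2 and Control 3 in 72 (80.0%), against 61.0% of all tested genes. The groups did not overlap in 13 genes, all higher in 3A, or 14.4%, beside 36.1% of all tested genes (18.6% higher and 17.6% lower). Without Control 1, 18 lay wholly higher and 59 wholly lower in 3A, beside 73.2% of all tested genes (36.9% higher and 36.2% lower).

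With all 6 libraries and without Control 1, the log2 fold change was lower for genes of shorter proteins, among the respiratory chain genes as among other protein-coding genes. The 48 tested genes for proteins under 150 residues had a median log2 fold change of -0.44, the 26 between 150 and 300 residues -0.20 and the 16 over 300 residues 0.21. Other protein-coding genes had -0.22, -0.07 and 0.03 in the same classes. Without Control 1 the 3 medians were -0.76, -0.38 and 0.20, against -0.39, -0.13 and 0.13 for other protein-coding genes, and 33 of the short class were lower and 3 higher, while 2 of the long class were lower and 6 higher. Called in that fit were 75.0% of the short and 50.0% of the long class, beside 58.5% and 51.0% of other protein-coding genes, of which 336 were lower and 118 higher in the short class and 1773 lower and 2698 higher in the long class. Ndufv3, with 468 residues in its longest annotated form, was the long-class gene with the lowest value, at 50.3, 33.9 and 33.1 CPM in 3A and 36.2, 83.0 and 102 CPM in Control.

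Length of mRNA and GC content moved with these values too. Spearman's rho between log2 fold change and mRNA length was 0.34 across the 90 genes and 0.14 across 11895 other protein-coding genes, and with GC content -0.35 and -0.26; genes share the same 6 libraries and are not independent. Per-library offsets for mRNA length and GC content were an alternative chosen after the data were seen. With them, rho with mRNA length was -0.06 and rho with protein length 0.07, against 0.33 for protein length with no offsets. The offsets were fitted to take out the relation with mRNA length and GC content, so a rho near 0 with mRNA length was set in advance. The coding sequence is part of the mRNA, so protein length gives no separate check. Under the offsets the median log2 fold change was 0.01 over the 90 genes and -0.24 over complex I. In that fit 7 genes were higher and 0 lower (background 20.3%, with 9.76% higher and 10.5% lower). With the share of mitochondrially encoded mRNA as a covariate, also chosen after the data were seen, the median was 0.31 over the 90 genes and 0.20 over complex I, and 20 were higher and 0 lower (background 18.4%, with 9.13% higher and 9.23% lower). The share was 4.16% and 4.69% in Control 2 and Control 3 and at most 1.58% in the other 4 libraries. The covariate thus set Control 2 and Control 3 apart, and the group term compared 3A mostly with Control 1. Control 1 was the lowest library for 64.4% of the 90 genes, so higher values in 3A were largely set in advance in this fit. The part of mRNA length, GC content, mitochondrial share or library Control 1 in the differences was not tested beyond these fits.

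**Figure D5:**
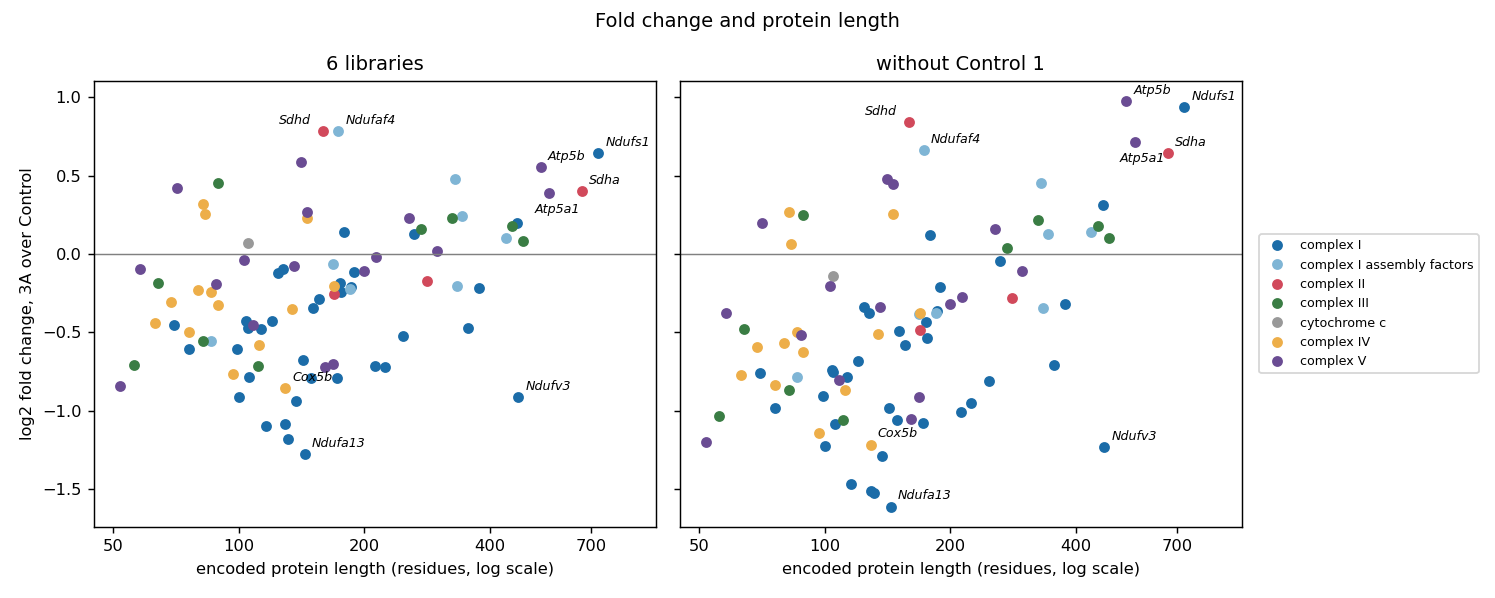
Log2 fold change of 3A over Control (y axis) against the length of the encoded protein in residues (x axis, log scale) for the tested genes reported here except Cox7b2, coloured by complex, with all 6 libraries (left) and without Control 1 (right). Most genes under 150 residues lie below 0, with medians of -0.44 and -0.76, and 12 of the 16 over 300 residues lie above, with medians of 0.21 and 0.20; Ndufv3 is the lowest of the 4 long genes below 0.

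Per kilobase of mRNA, levels differed widely between genes within a complex. The median over the tested genes was 114 CPM per kb in 3A and 134 CPM per kb in Control. The highest means in 3A were Cox4i1 with 714 CPM per kb in 3A and 823 in Control, Atp5b with 707 in 3A and 481 in Control, and Uqcrq with 651 in 3A and 955 in Control. The assembly factors were lower, with a median of 21.6 CPM per kb in 3A and 20.4 in Control.

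The 13 respiratory chain proteins encoded in mitochondrial DNA had the same order of libraries as many small nuclear subunits. Their mRNAs summed to 15517, 11865 and 12738 CPM in 3A and 10899, 43932 and 51086 CPM in Control. With all 6 libraries, 1 of 12 tested, mt-Co2, a catalytic subunit of complex IV, was lower in 3A, with 3.90, 3.25 and 2.76 CPM in 3A and 3.77, 21.8 and 19.4 CPM in Control (log2 fold change -2.18, adjusted p = 0.0499 by edgeR; without Control 1, -2.63). That call was lost without any single library other than Control 1. This 1 call was 8.33% of those tested, beside 14.9% of all tested genes. Without Control 1 all 13 were lower, with a median log2 fold change of -1.97, beside 25.8% of all tested genes called lower. The most abundant, mt-Co1, had 11034, 8310.2 and 8779 CPM in 3A and 7536, 29794 and 34377 CPM in Control, and again Control 1 was with 3A. By contrast mt-Co2, mt-Co3, mt-Atp6, mt-Atp8, mt-Nd4l and mt-Nd3 were barely counted, with means of at most 3.60 CPM in 3A and 15.0 CPM in Control. The sum and the mitochondrial share therefore rest almost wholly on the other mRNAs, and the counted level of mt-Co2 may not be its true level. Why these mRNAs had so few counts was not tested.

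Of 43 tested assembly factors outside the symbol rule, 2 were higher and 1 was lower in 3A with all 6 libraries. That was 6.98%, beside 14.9% of all tested genes. Without Control 1, 9 were higher and 16 lower, or 56.8%, beside 52.0%. Uqcc1, a factor for making cytochrome b of complex III, had 51.9, 55.8 and 62.3 CPM in 3A and 34.4, 33.8 and 28.9 CPM in Control (log2 fold change 0.81, adjusted p = 0.0149 by edgeR; without Control 1, 0.86). Timmdc1, a membrane-arm assembly factor of complex I, had 56.7, 48.3 and 51.7 CPM in 3A and 36.2, 36.0 and 35.0 CPM in Control (0.55, adjusted p = 0.0384; 0.57 without Control 1). Coa3, which acts in making mt-Co1 protein, had 42.7, 39.2 and 36.1 CPM in 3A and 60.7, 78.5 and 66.3 CPM in Control (-0.80, adjusted p = 0.0182; -0.87 without Control 1). None of these 3 had overlapping groups, and each call was lost without Control 2, Control 3, 3A 2 or 3A 3, and that of Timmdc1 also without 3A 1.

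The share called with all 6 libraries, 14.9% over all genes, was 10.0% for the TCA cycle and pyruvate dehydrogenase, 18.2% for inner membrane exchange and for glycolysis, 7.69% for coenzyme Q synthesis and 1.28% for the mitochondrial ribosome. Without Control 1, beside 52.0% over all genes, these shares were 40.0%, 63.6%, 59.1%, 23.1% and 56.4% for the TCA cycle, inner membrane exchange, glycolysis, coenzyme Q synthesis and the mitochondrial ribosome. Of 20 genes of the TCA cycle and pyruvate dehydrogenase, 2 were higher, Pdhx (log2 fold change 0.81; 0.98 without Control 1), the E3-binding protein of pyruvate dehydrogenase, and Idh2 (0.58; 0.52), mitochondrial isocitrate dehydrogenase, and 0 were lower; without Control 1, 8 were higher and 0 lower. The list called inner membrane exchange also holds the outer membrane channels Vdac1, Vdac2 and Vdac3. Of its 11 tested genes, 2 were higher: Vdac3 (0.77, and 0.73 without Control 1) and the inner membrane ADP/ATP carrier Slc25a5 (0.61, and 0.65). Slc25a5 had 888, 894 and 914 CPM in 3A and 619, 617 and 536 CPM in Control. In coenzyme Q synthesis 1 of 13 was lower, Coq8a (-2.22; -2.10 without Control 1), a kinase-like protein, at 0.401, 0.613 and 1.09 CPM in 3A and 3.71, 3.25 and 2.84 CPM in Control. In the mitochondrial ribosome 1 of 78 was higher, Mrpl50 (0.98; 1.03 without Control 1), and without Control 1 the counts were 9 higher and 35 lower.

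Glycolysis and lactate genes gave 1 higher and 3 lower of 22. Ldha, lactate dehydrogenase A, had 1198, 1406 and 1359 CPM in 3A and 939, 751 and 617 CPM in Control (log2 fold change 0.78, adjusted p = 0.0405 by edgeR; without Control 1, 0.96). Slc2a1, the glucose transporter GLUT1, had 129, 147 and 149 CPM in 3A and 286, 280.3 and 269 CPM in Control (-0.98, adjusted p = 0.00510; -0.95 without Control 1). Pdk2, a kinase that inhibits pyruvate dehydrogenase, had 0.688, 0.533 and 0.473 CPM in 3A and 3.36, 3.25 and 3.48 CPM in Control (-2.57, adjusted p = 0.00157; -2.56 without Control 1), and the aldolase Aldoc was lower, with a log2 fold change of -0.94 (-1.02 without Control 1). The calls of Slc2a1, Pdk2 and Mrpl50 held in each fit that left out 1 library, while Ldha, Pdhx, Idh2 and Slc25a5 passed in none of these fits but the one without Control 1. Vdac3 was lost without Control 2, 3A 2 or 3A 3, Aldoc without 3A 2 or 3A 3 and Coq8a without 3A 2.

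Of 20 tested regulators of mitochondrial biogenesis, 0 were higher and 1 was lower, Polrmt (-0.72; -0.78 without Control 1), the mitochondrial RNA polymerase, at 14.9, 13.8 and 13.1 CPM in 3A and 20.8, 23.9 and 24.3 CPM in Control. The call on Polrmt was lost with offsets for mRNA length and GC content and without Control 2, Control 3, 3A 2 or 3A 3. Nrf1, whose letters were searched above, had 51.7, 52.9 and 47.3 CPM in 3A and 49.7, 42.8 and 40.4 CPM in Control. Gabpa, the DNA-binding part of GABP, had 61.7, 76.7 and 83.9 CPM in 3A and 76.0, 52.0 and 56.7 CPM in Control. Tfam, which packages and transcribes mitochondrial DNA, had 59.2, 62.0 and 68.8 CPM in 3A and 68.5, 67.4 and 69.1 CPM in Control. Lrpprc, a protein that stabilizes mitochondrial mRNAs, had 78.5, 92.3 and 91.1 CPM in 3A and 71.3, 49.7 and 48.6 CPM in Control (log2 fold change 0.63, edgeR adjusted p = 0.0700; 0.84 and 0.00253 without Control 1). Its partner Slirp, a small protein, had 42.2, 28.7 and 30.1 CPM in 3A and 23.4, 65.1 and 80.3 CPM in Control. Ppargc1b, a coactivator of these factors, had 14.8, 12.4 and 9.24 CPM in 3A and 5.67, 7.04 and 8.32 CPM in Control, without overlap and without passing (0.80, adjusted p = 0.0664; 0.67 and 0.0366 without Control 1), and Ppargc1a was at or under 0.212 CPM in every library.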

How the data were processed

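RNA from 6 keratinocyte samples was sequenced, and the authors deposited raw, whole-number read counts per Ensembl gene. Listed in the submitters' processing notes, with no version or role, are the builds GRCh38, hg38 and mm10 and the tools edgeR, featureCounts, limma and Trim Galore. Aligner, strand setting and annotation release: not given in the sources used here.

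Symbols and positions came from GENCODE M21 (49056 IDs matched, 259 did not); mRNA length, GC content and protein length are those of the transcript with the longest coding sequence. All 13704 genes passing filterByExpr were fitted with edgeR 4.0.16 in R 4.3.3 (TMM, quasi-likelihood, group as the only term, common biological coefficient of variation 0.264). On simulated data with 200 changed genes among 13534, the fit recovered 33% of 2-fold and 98% of 4-fold changes, with 134 calls of which 3 were false. The simulation gave every gene the same dispersion, changed only genes above a minimum level and held no library apart from its group. These rates therefore need not hold for the libraries here, where Control 1 stood apart. Alternatives used limma 3.58.1, DESeq2 1.42.0 and mgcv 1.9.3, other scalings, filters and thresholds, each library left out, and a replicate block. CPM uses TMM-scaled library sizes. Intervals and floors cover counting error only.

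The members and companion lists were chosen with earlier results of these data known. Values in every library are given for called members, fixed defining subunits, isoform families and the 3 highest and 3 lowest log2 fold changes, beside further members chosen after their values were seen. Lists carry no test of their own. A single member enters the counts, sums and medians but is not reported here.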

Additional observations from a re-analysis of the deposited data

How the results depend on the processing

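The numbers of called genes depended on the setting. In the 90 respiratory chain genes (3 higher and 0 lower), RLE or upper-quartile scaling, limma-voom and robust quasi-likelihood left both counts as they were. Library size alone in place of TMM gave 5 higher (2 assembly factors, 1 of complex V), DESeq2 5 higher (2 assembly factors, 1 of complex V) and 2 lower, both of complex I, and no low-count filter 1 lower, of complex I. A minimum of 1 CPM in 3 libraries removed Cox7b2, leaving 0 in complex IV, and a threshold of 0.01 left 1 higher, with 0 among assembly factors and complex II. The mitochondrial share as a covariate gave 20 higher: 1 of complex I, 3 assembly factors, Sdhd of complex II, 3 of complex III, cytochrome c (1), 5 of complex IV and 6 of complex V. Offsets for mRNA length and GC gave 7 higher: 1 of complex III, 2 of complex IV and 2 of complex V among them. Medians under the covariate were 0.31 over all members, 0.20, 0.22, 0.42 and 0.39 for complexes I, II, IV and V, 0.32 for assembly factors and 0.61 for cytochrome c. Both were chosen after seeing the data, and the cause of each shift was not tested. The covariate fit compared 3A mostly with Control 1, so its counts, medians and turns in sign do not describe 3A against the whole Control group.

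Leaving out 1 library at a time, the counts ran from 1 to 11 higher and 0 to 46 lower over all members, 0 to 2 higher and 0 to 26 lower for complex I, 0 to 2 and 0 to 1 for assembly factors and for complex II, 0 and 0 to 4 for complex III, 1 and 0 to 8 for complex IV, and 0 to 4 and 0 to 6 for complex V. The high end of each of these ranges was the fit without Control 1, apart from the counts of 0 or 1 higher for complexes III and IV, which were the same in each fit. Medians ran from -0.48 to -0.08 over all members, -0.76 to -0.26 for complex I, -0.11 to 0.16 for assembly factors, 0.07 to 0.18 for complex II, -0.02 to 0.15 for complex III, -0.14 to 0.23 for cytochrome c, -0.57 to -0.11 for complex IV and -0.27 to 0.11 for complex V. In the companion lists the ranges were 0 to 13 lower for mitochondrially encoded mRNAs, 0 to 9 higher and 0 to 16 lower for other assembly factors, 0 to 2 and 0 to 1 for coenzyme Q synthesis, 0 to 8 higher for the TCA cycle, 0 to 7 and 2 to 6 for glycolysis, 0 to 7 and 0 to 2 for biogenesis regulators, 0 to 3 and 0 to 4 for inner membrane exchange, and 1 to 9 and 0 to 35 for the mitochondrial ribosome.

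With the replicate number as a replicate block, 0 members passed, against 2.10% of all genes. In the companion lists only 1 glycolysis gene passed, and it was lower. The same-numbered libraries deviated from their group means in opposite directions (r of -0.66, -0.42 and -0.37). With 3 libraries in a group and Control 1 apart, these values cannot decide whether the numbers pair libraries, and the labels do not say that they do. Among companion lists, the 1 lower mitochondrially encoded mRNA became 0 with RLE, library size, upper quartile, 1 CPM, voom, robust fitting, the 0.01 threshold or the covariate, and 6 with no filter, 10 with DESeq2 and 8 with offsets. DESeq2 gave 3 lower other assembly factors, 2 higher for coenzyme Q, 6 higher and 1 lower for the TCA cycle, 5 higher for glycolysis, 4 higher biogenesis regulators, and 6 higher and 3 lower for the mitochondrial ribosome. The covariate gave 9 higher other assembly factors, 3 for coenzyme Q, 2 regulators and 11 for the ribosome, and the offsets 4, 1, 3 and 7 higher, with 4 higher and 1 lower for the TCA cycle, 3 higher for glycolysis, 0 lower regulators and 2 lower for the ribosome. Library size alone gave 1 higher for coenzyme Q, 0 for glycolysis, 1 regulator and 3 for the ribosome. Upper quartile gave 2 regulators and 2 for the ribosome, voom 1 and 2, RLE and the 1 CPM minimum 1 regulator, and no filter 1 higher other assembly factor, 1 for inner membrane exchange and 3 lower for the ribosome. At the 0.01 threshold 0 remained in other assembly factors, coenzyme Q, the TCA cycle, regulators and inner membrane exchange, and 0 higher in glycolysis.

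Of the 3 members that passed with all 6 libraries, Sdhd and Ndufaf4 did not turn in sign under the settings run. Cox7b2, with 0 counts in every Control library, could not turn. Of the 90 tested members, the covariate turned 58 in sign, 10 of which passed under it, and the offsets turned 22, of which 0 passed; library size alone turned 6, and each other fit run on all libraries at most 2. The following are those among the 34 members whose values were followed under each setting. The covariate turned Ndufa5 (0.16), Sdhb (0.080), Cox4i1 (0.21), Cox6a1 (0.23), Cox6a2 (0.21), Cox6b1 (0.44), Cox6c (0.57), Cox7a1 (0.31), Cox7a2l (0.030), Cox7b (0.81), Cox8a (0.49), Atp5g1 (0.66) and Atp5a1 (-0.049). The offsets turned Sdhb (0.020), Cox4i1 (0.26), Cox6a1 (0.041), Cox6b1 (0.039), Cox7a1 (0.21), Cox8a (0.34), Atp5g1 (0.41) and Cycs (-0.23). Library size alone turned Atp5g1 (0.024). Leaving out 3A 1 turned Uqcrc1 (-0.022) and Cycs (-0.002), 3A 3 Atp5g1 (0.09), Control 1 Atp5c1 (-0.11) and Cycs (-0.14), Control 2 Cox7a1 (0.080) and Atp5g1 (0.06), and Control 3 Cox7b (0.12) and Atp5g1 (0.10). Over these fits Cox7a1 ran from -0.62 to 0.080 and Atp5g1 from -0.34 to 0.10. Depth limits Cox6a2, Cox7a1 and the 5 untested genes, which stayed under 1 CPM.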
